A study of Mus musculus with 24 samples.

Results

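The intrinsic, or mitochondrial, route to apoptosis was followed here through 9 genes in the developing mouse retina. They were taken by symbol from the gene count table, on autosomes 1 to 19 or X: the pore-forming effectors Bax and Bak1, the survival genes Bcl2 and Bcl2l1, the BH3-only genes Bcl2l11, Bbc3 and Pmaip1, and the apoptosome genes Apaf1 and Casp9. All 9 were found among 45594 genes, and all 9 passed the filter on low counts that left 21858 genes. The libraries came from whole retinas of C57/Bl6N mice at 4 embryonic ages (E11, E12, E14, E16) and 8 ages counted from birth (P0, P2, P4, P6; P10, P14, P21, then P28), with 2 libraries per stage and 24 in all. No allele or treatment is named in the labels, and the stages differ by age. Libraries of the first 2 ages were made from 100 ng of RNA and the others from 1 µg. Age and RNA input therefore cannot be told apart where E11 or E12 is set against a later stage. Whether the 2 libraries of a stage come from separate animals or pools is unstated, so the p-values cover only the spread between them, which may be technical.

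In healthy cells, Bcl2 and BCL-XL (the product of Bcl2l1) hold Bax and Bak1 inactive. BH3-only proteins such as BIM (Bcl2l11), PUMA (Bbc3) and NOXA (Pmaip1) bind the survival proteins and release the effectors, which open the outer mitochondrial membrane. Cytochrome c then joins Apaf1 in the apoptosome, which activates caspase-9 and, through it, the executioner caspases. In the rodent retina, ganglion cells and other neurons die by this route in the perinatal period and the first postnatal weeks, and mice without Bax keep many ganglion cells that would otherwise be lost.

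Library totals ran from 24567532 to 35898879 counts, and replicate libraries correlated at 0.975 to 0.989 in log2 CPM (counts scaled to library size). A chi-square of the difference between replicates, divided by the number of genes, was 81 at E11, 36.1 at E12 and lower at the other stages. The tests pool the spread over stages, so they can understate that of E11. Markers of neighbouring tissues were high in the earliest libraries. The summed level of 8 lens genes was 7.99 and 3010 CPM in the E11 libraries, against 1.78 to 2.0 CPM at E16. Lens sums were 224 and 3000 CPM at E12 and 62.6 and 2300 CPM at E14. The 6 mesenchyme genes summed to 121 to 144 CPM at E11. The progenitor and cell cycle list summed to 185 to 219 CPM at P28, against 6430 to 6450 CPM at P0, and the photoreceptor list to 53500 to 58900 CPM at P28, against 751 to 780 CPM at P0. In whole tissue, fewer cells of a type and less RNA per cell cannot be told apart.

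Bak1 carried a difference in sequence that its gene total does not show. Transcript Bak1-002 holds a 20-base microexon at chr17:27021663-27021682 (GRCm38, minus strand), exon 5 of 7, which Bak1-001 lacks. The pair below shows the spliced transcript sequence on both sides of that exon, read 5′ to 3′, with the microexon in capitals.
Bak1-002: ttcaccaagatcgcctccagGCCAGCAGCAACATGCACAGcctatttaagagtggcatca
Bak1-001: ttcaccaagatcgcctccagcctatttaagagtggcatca
The insertion of 20 bases shifts the reading frame. The annotated coding length is 453 bases for Bak1-002, which is annotated as a target of nonsense-mediated decay, and 627 bases for Bak1-001. Bak1-001 also has a longer first exon, of 599 bases against 168 bases.

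Bcl2l1 was shown by its start sites, because its transcripts begin at different first exons and their shares moved with age. Bcl2l1-001 begins at 152831728 on chromosome 2, and Bcl2l1-201 at 152830666, close to a RefSeq start at 152830717; both carry the same coding length of 699 bases. The lines below give the 250 bases before each RefSeq start (GRCm38.p6, minus strand), with CpG dinucleotides in capitals, the first at chr2:152831729-152831978 and the other at chr2:152830718-152830967.
Bcl2l1 distal start: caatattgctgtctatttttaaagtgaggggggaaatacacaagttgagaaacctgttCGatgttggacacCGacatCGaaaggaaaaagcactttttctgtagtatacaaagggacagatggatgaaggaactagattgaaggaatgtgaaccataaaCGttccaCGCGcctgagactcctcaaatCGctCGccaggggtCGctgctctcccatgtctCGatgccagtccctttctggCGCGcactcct
Bcl2l1 middle start: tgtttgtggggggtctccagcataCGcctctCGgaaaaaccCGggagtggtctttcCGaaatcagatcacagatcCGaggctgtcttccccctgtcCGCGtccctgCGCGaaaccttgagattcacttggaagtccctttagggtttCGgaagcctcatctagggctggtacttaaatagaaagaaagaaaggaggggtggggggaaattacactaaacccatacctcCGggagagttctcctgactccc
The distal window held 12 CpG dinucleotides and the middle window 11, against a median of 6 over 32851 RefSeq promoter windows of the same length. Of all windows, 68.5% held no more than the distal window and 66.5% no more than the middle one. A RefSeq start at 152828489, close to the noncoding transcript Bcl2l1-008, had 0 CpG dinucleotides in its window, as few as in 7.87% of all windows.

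All 9 genes differed between stages. In the test of any difference among the 12 stages, each passed an adjusted p of 0.05 with stage means at least 2-fold apart, a call that 77.3% of all genes tested also received (88.2% by adjusted p alone) (edgeR quasi-likelihood test, p adjusted over 21858 genes by Benjamini-Hochberg). The median range of the members' stage means was 1.91 on the log2 scale, against 2.21 over all genes. Bcl2 had the widest range, 3.65 (adjusted p = 9.18e-13), and Casp9 the narrowest, 1.17 (adjusted p = 1.85e-06). For Casp9 the range was 0.73 when transcript counts were summed per gene, under the 2-fold limit. The call for Pmaip1 (adjusted p = 0.0331) was lost without E14 replicate 1 (0.0931), E14 replicate 2 (0.0527), P6 replicate 1 (0.0508) or P14 replicate 2 (0.121). Without the E11 and E12 stages, again 9 of 9 were called. That fit called 15236 genes in all, against 16892 with every stage.

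**Figure D1:**
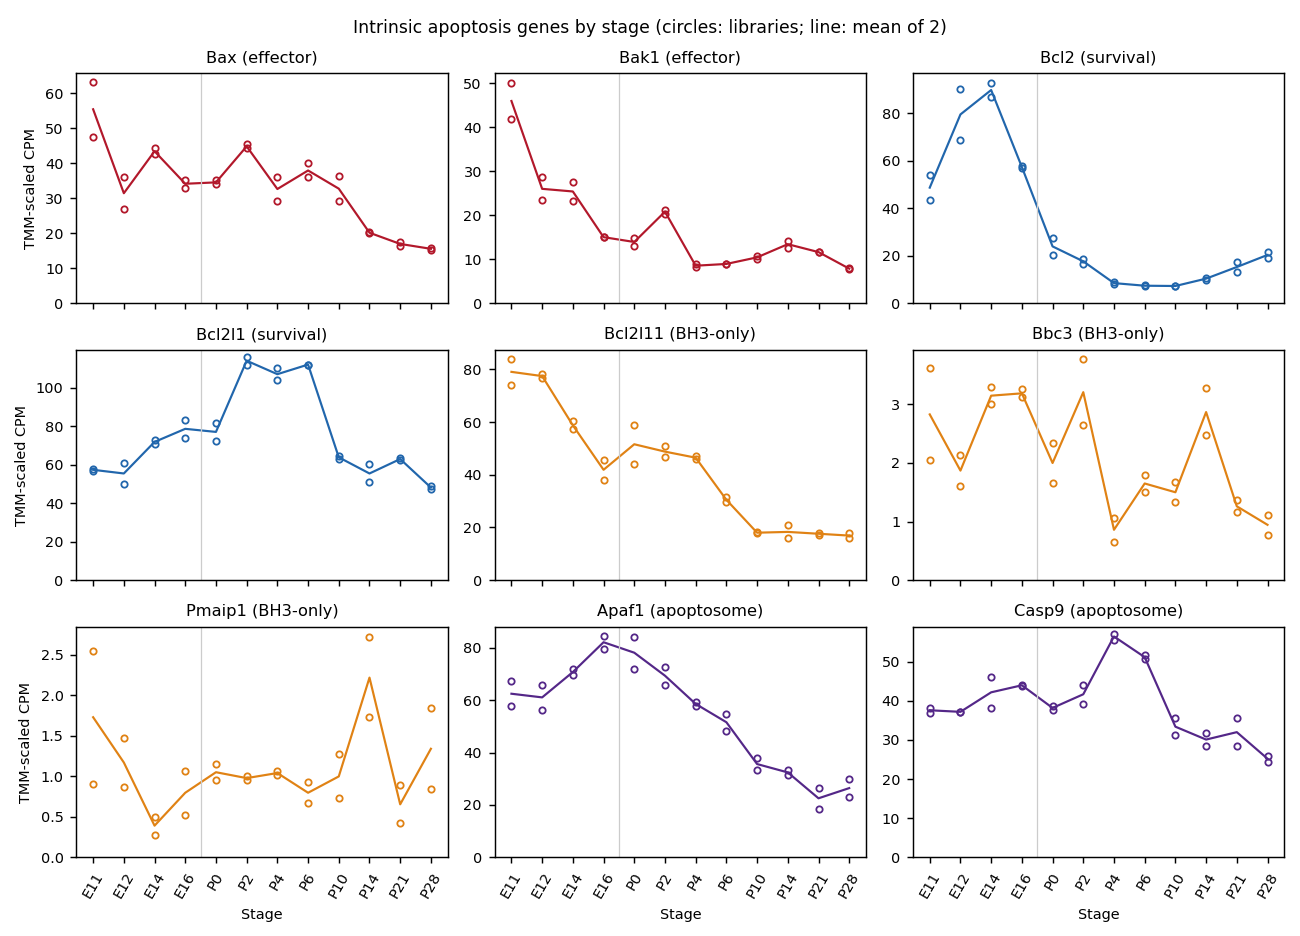
TMM-scaled CPM of the 9 genes (vertical axes, each from 0) at the 12 stages (horizontal axis); circles are libraries, lines join the means of 2 libraries, and the grey line marks birth. Bcl2 sits at 87.1 and 92.7 CPM at E14 and at 7.05 and 7.33 CPM at P10, while Bcl2l1 is near 112 CPM from P2 to P6.

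Per unit of transcript length, the genes spanned a wide range of levels. At P28, Bcl2l1 had 62.9 ± 4.36 TPM, an abundance scaled by transcript length (mean ± SD, n = 2), and Bax 37.8 ± 0.407 TPM. Casp9 (17.4 ± 1.0), Apaf1, Bak1 (9.34 ± 0.196) and Bcl2l11 (8.47 ± 0.614) followed in TPM, then Bcl2 at 5.85 ± 0.379, Bbc3 at 1.35 ± 0.369 and Pmaip1 at 0.947 ± 0.502 TPM. At P0, Bcl2l1 had 96.5 ± 11.4 TPM and Bax 82.3 ± 4.07 TPM, and Bcl2 7.09 ± 1.6 TPM. The 2 survival genes were thus far apart in level at both ages, with Bcl2l1 the higher. At E14 the gap was smaller, with 79.6 TPM for Bcl2l1 and 23.8 TPM for Bcl2.

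Among the effectors, Bax (chr7:45461695-45466898, minus strand) had 47.5 and 63.3 CPM at E11, 35.1 and 33.9 CPM at P0, 36 and 39.9 CPM at P6, and 15.2 and 15.8 CPM at P28. In CPM, both E11 libraries lay above every later library, and both P28 libraries lay below every earlier one. The lowest mean CPM was 3.57 times below the highest. Neither separation held in TPM. Bax had 85.1 and 104 TPM at E11 against 105 and 103 TPM at P2, with means of 94.6 and 104 TPM. It had 37.5 and 38.1 TPM at P28 against 39.8 and 37.9 TPM at P21. Bax fell at P28 against P6 by 1.29 ± 0.15 on the log2 scale (SE; adjusted p = 2.57e-06, edgeR quasi-likelihood test). Between E16 and P6 its level did not pass the test (log2 change 0.16, adjusted p = 0.422).

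Bak1 (chr17:27019810-27029009, minus strand), the other effector, had its highest level at E11, with 41.8 and 50.2 CPM. It had 15.0 and 15.1 CPM at E16, 20.8 ± 0.599 CPM at P2, 8.22 and 8.78 CPM at P4 and 7.79 and 7.87 CPM at P28. The P2 libraries stood above those of P0 and of P4 without overlap. Those of P14 (13.4 ± 1.14 CPM) also lay above P10 and P21. Neither of these steps at P14 passed the edgeR quasi-likelihood test (adjusted p = 0.0642 against P10, and 0.256 for P21 against P14). Bak1 fell at P4 against P2 by 1.29 ± 0.13 on the log2 scale (adjusted p = 2.9e-06, edgeR quasi-likelihood test). With summed transcript counts that change was -0.98, just under the 2-fold limit. Of the 2407 exonic bases of Bak1, 614 (25.5%) overlap Ggnbp1 on the opposite strand, which averaged 298 counts per library against 523 for Bak1. The libraries were directional, but how the counting treated strand is unstated, and the part of Ggnbp1 reads in the Bak1 values was not tested.

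The survival genes ran in different directions. Bcl2 (chr1:106538178-106714274, minus strand) had 54.2 and 43.3 CPM at E11, 92.7 and 87.1 CPM at E14, 57.1 and 57.7 CPM at E16, 27.5 and 20.3 CPM at P0 and 7.13 and 7.49 CPM at P6. It was at 7.33 and 7.05 CPM at P10, 13.0 and 17.5 CPM at P21 and 19.2 and 21.4 CPM at P28. The libraries of P6 and P10 overlapped at the low point, 12.5 times below E14 in mean, and both P28 libraries lay above every library from P4 to P21.

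Bcl2l1 (chr2:152780668-152831728, minus strand) had its highest levels from P2 to P6, when those of Bcl2 approached their lowest. Its libraries held 57.8 and 56.8 CPM at E11, 81.8 and 72.1 CPM at P0, 112 and 116 CPM at P2, 112 and 112 CPM at P6, 63.1 and 64.5 CPM at P10 and 48.9 and 47.4 CPM at P28. The P2, P4 and P6 libraries, at 104 CPM or more, all stood above every library of the other 9 stages. The highest stage mean was 2.37 times the lowest.

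**Figure D2:**
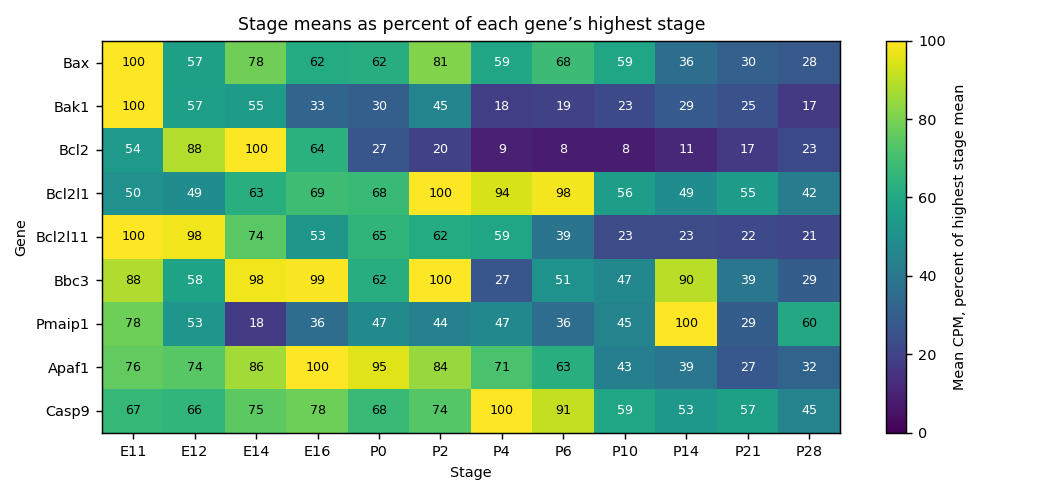
Stage means of TMM-scaled CPM as percent of each gene's highest stage mean (colour and printed number), genes down the page and stages across. At P6, Bcl2 stands at 8.14% of its highest mean and Bcl2l1 at 98.3%; at P28, Bcl2 is at 22.6% and Bcl2l1 at 42.3%.

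Among the BH3-only genes, Bcl2l11 (chr2:128126038-128162547, plus strand) was the most abundant per length. It had 74.3 and 83.9 CPM at E11, 45.5 and 38.2 CPM at E16, 46.0 and 47.0 CPM at P4, 31.4 and 29.7 CPM at P6 and 18.1 and 17.9 CPM at P10. From P10 to P28 its libraries lay between 15.8 and 20.8 CPM and neighbours in that order overlapped. Its lowest stage mean was 4.68 times below its highest.

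Bbc3, on chromosome 7, and Pmaip1, on chromosome 18, were near the limit of what the depth resolves. Bbc3 had 19.3 to 118 counts per library and Pmaip1 8.73 to 84.2 counts. Bbc3 held 2.65 and 3.77 CPM at P2, 0.657 and 1.06 CPM at P4, 3.28 and 2.47 CPM at P14, 1.36 and 1.16 CPM at P21 and 1.12 and 0.773 CPM at P28. The P2 and P14 libraries thus lay above the stage that followed each of them, without overlap. Pmaip1 held 0.91 and 2.55 CPM at E11, 0.279 and 0.499 CPM at E14, 1.73 and 2.72 CPM at P14 and 0.886 and 0.421 CPM at P21, and the 2 libraries of E11 were themselves far apart. In the order of stage means, 10 of 11 neighbours overlapped for each of these genes.

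The apoptosome genes were highest at different times. Apaf1 (chr10:90989311-91082770, minus strand), the scaffold of the apoptosome, had 84.6 and 79.8 CPM at E16, 72.1 and 84.3 CPM at P0, 54.9 and 48.4 CPM at P6, 33.2 and 38.1 CPM at P10, 18.4 and 26.6 CPM at P21 and 29.8 and 23.0 CPM at P28. The libraries of P21 and P28 overlapped, and those of E16 and P0 overlapped. Casp9 (chr4:141793612-141815976, plus strand), the initiator caspase, had 37.6 and 38.7 CPM at P0, 57.2 and 55.7 CPM at P4, 51.8 and 50.7 CPM at P6, 31.2 and 35.5 CPM at P10 and 26.0 and 24.3 CPM at P28. Its P4 and P6 libraries were above those of all other stages. Its highest mean was 2.24 times its lowest.

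In the embryonic window, E16 against E11, Bak1 fell, to 15.0 ± 0.0184 CPM at E16 against 46.0 ± 5.91 CPM at E11. The log2 change was -1.61 ± 0.13 (SE; adjusted p = 2.37e-08, edgeR quasi-likelihood test with Benjamini-Hochberg adjustment). It was the 1 member called of 9, where 22.7% of all genes tested were called, and the members' median log2 change was 0.18 against 0.00 over all genes. On adjusted p alone, with no limit on size, 5 of 9 passed, against 45.8% of all genes. Bax (-0.70 ± 0.15, adjusted p = 0.000914) and Bcl2l11 (-0.92 ± 0.14, adjusted p = 3.18e-05) were lower and Bcl2l1 (0.46 ± 0.1, adjusted p = 0.00148) higher at E16 by that rule, as was Apaf1 (0.40, adjusted p = 0.0451). The count was 2 without E11 replicate 1, when Pmaip1 was at -1.67 (adjusted p = 0.0185), and 2 without E16 replicate 1, when Bcl2l11 was at -1.05. The lens, mesenchyme and pigment epithelium markers moved with this window: 5 of 8, 6 of 6 and 4 of 7 were called lower at E16, as were 7 of 9 red cell markers. Ganglion cell markers were called higher in 8 of 8 cases, with sums of 1220 to 1270 CPM at E16 against 54.9 to 56.7 CPM at E11, and amacrine and horizontal markers in 6 of 7. The part of these markers in the member values was not tested. RNA input also differed (100 ng at E11, 1 µg at E16), and its part cannot be told apart from that of age.

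Between E16 and P6, Bcl2 fell 7.85-fold, to 7.31 ± 0.252 CPM at P6 against 57.4 ± 0.417 CPM at E16. Its log2 change was -2.97 ± 0.18 (adjusted p = 4.53e-10, edgeR quasi-likelihood test), and over all settings tried it lay between -3.01 and -2.92. Bcl2 was the 1 member called of 9, against 24.9% of all genes. By adjusted p alone 6 of 9 passed, against 47.1% of all genes: Bcl2l1 was higher at P6 (0.51 ± 0.1, adjusted p = 0.000533), and Bak1 (-0.76 ± 0.13, adjusted p = 0.000145), Apaf1 (-0.67 ± 0.15, adjusted p = 0.00167), Bbc3 (-0.96 ± 0.32, adjusted p = 0.0215) and Bcl2l11 (-0.46, adjusted p = 0.0115) were lower. The members' median log2 change was -0.46, against 0.01 over all genes. Over the same window 4 of 8 ganglion cell markers were called lower and 1 higher, and the list summed to 758 to 763 CPM at P6 against 1220 to 1270 CPM at E16. The progenitor and cell cycle list summed to 782 to 863 CPM at P6 against 6440 to 6860 CPM at E16. Photoreceptor markers were called higher in 9 of 9 cases, with sums of 7380 to 7480 CPM at P6 against 153 to 168 CPM at E16. The part of these lists in the member values was not tested.

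During maturation, P28 against P6, the survival genes moved in opposite directions. Bcl2 rose, to 20.3 ± 1.57 CPM at P28 against 7.31 ± 0.252 CPM at P6 (log2 change 1.48 ± 0.17, adjusted p = 2.17e-06, edgeR quasi-likelihood test). Bcl2l1 fell, to 48.1 ± 1.11 CPM at P28 against 112 ± 0.189 CPM at P6 (log2 change -1.22 ± 0.1, adjusted p = 5.4e-08). Bax and Casp9 fell as well, so that 4 of 9 members were called, 1 higher and 3 lower, against 24.7% of all genes. Casp9 stood at 25.2 ± 1.18 CPM at P28 against 51.2 ± 0.825 CPM at P6 (log2 change -1.03 ± 0.12, adjusted p = 1.32e-06), close to the 2-fold limit. Without P28 replicate 2 it was -0.98, and with summed transcript counts Casp9 was at -0.67 and Bcl2l1 at -0.84, both under 2-fold. Apaf1 was lower by 0.97 ± 0.16 on the log2 scale (adjusted p = 7.51e-05), just short of 2-fold. It was called without P6 replicate 2 (-1.06) or P28 replicate 1 (-1.16), with summed transcript counts (-1.23) and with scaling by library size alone (-1.06). On adjusted p alone 6 of 9 passed, against 48.8% of all genes. The members' median was -0.85, against 0.04 over all genes. Cell type markers moved in this window too: 9 of 10 progenitor and cell cycle markers were called lower. Of the bipolar cell markers, 5 of 6 were called higher, with sums of 1010 to 1090 CPM at P28 against 183 to 257 CPM at P6. Of the photoreceptor markers, 6 of 9 were higher, with sums of 53500 to 58900 CPM at P28 against 7380 to 7480 CPM at P6. Their part in the member values was not tested.

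**Figure D3:**
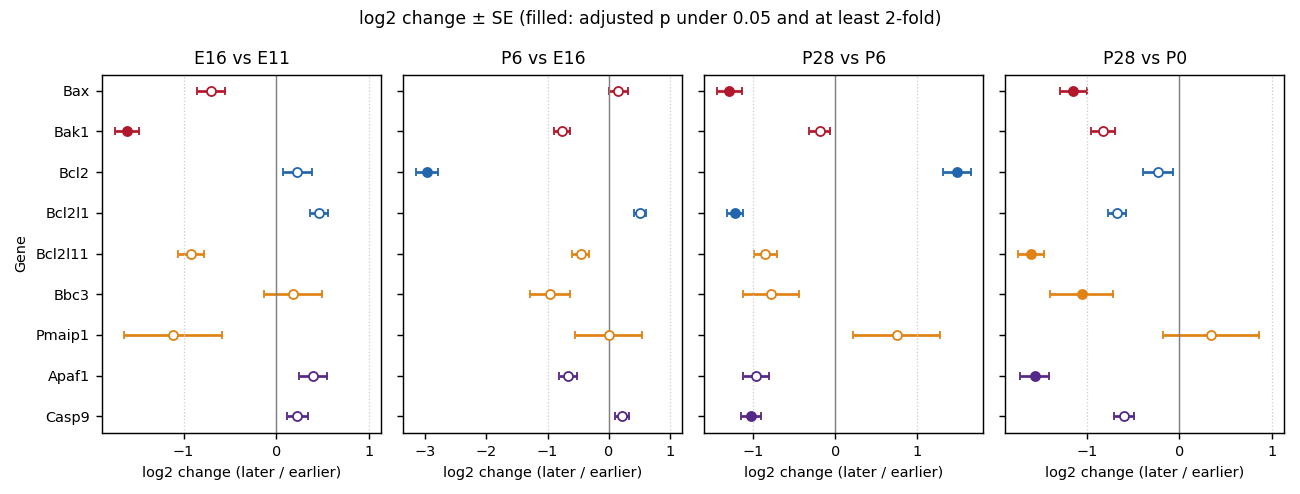
log2 change of each gene (horizontal axis, later over earlier stage) in 4 comparisons, with bars of 1 SE from the edgeR fit; filled points passed an adjusted p of 0.05 with at least 2-fold change. Bcl2 is at -2.97 in P6 against E16 and at 1.48 in P28 against P6.

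Set against the newborn retina, 1 effector, 2 BH3-only genes and 1 apoptosome gene were lower by at least 2-fold in mature retina. At P28 against P0, Apaf1 fell to 26.4 ± 4.77 CPM at P28, against 78.2 ± 8.63 CPM at P0, and Bax to 15.5 ± 0.442 CPM at P28, against 34.5 ± 0.886 CPM at P0. Bcl2l11 fell to 16.9 ± 1.35 CPM at P28, against 51.6 ± 10.4 CPM at P0, and Bbc3 to 0.944 ± 0.242 CPM at P28, against 2 ± 0.496 CPM at P0. In the order Apaf1, Bax, Bcl2l11, Bbc3 the log2 changes were -1.57 ± 0.16, -1.15 ± 0.15, -1.61 ± 0.14 and -1.06 ± 0.34, with adjusted p of 1.73e-07, 4.63e-06, 2.82e-08 and 0.0118 (edgeR quasi-likelihood test). These 4 of 9 compare with 37.0% of all genes called (7 of 9 and 58.9% by adjusted p alone), and the members' median of -0.83 with 0.03 over all genes. Bak1 (-0.83 ± 0.13, adjusted p = 3.97e-05), Bcl2l1 (-0.68 ± 0.1, adjusted p = 2.2e-05) and Casp9 (-0.60 ± 0.11, adjusted p = 0.000224) were lower by under 2-fold. Bcl2 was not called (-0.23, adjusted p = 0.242), nor was Pmaip1 (0.34, adjusted p = 0.602). The Bbc3 call was lost without P0 replicate 1 (adjusted p = 0.115) or P28 replicate 2 (adjusted p = 0.11), and was -0.94 with summed transcript counts. This comparison shares its P28 libraries with the one before it, so the values stand side by side only.

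Between neighbouring stages, 6 of 99 tests of a member in a step were called, all of them falls and in 3 steps, against 6.76% of such tests over all genes. At P0 against E16, Bcl2 fell by 1.27 on the log2 scale (adjusted p = 4.4e-05, edgeR quasi-likelihood test), in a step where 3.03% of all genes fell. At P4 against P2, 3 members fell where 7.28% of all genes fell: Bak1, Bcl2 (-1.07 ± 0.17, adjusted p = 0.000148) and Bbc3 (-1.91 ± 0.34, adjusted p = 0.000369). In that same step Casp9 was higher at P4 by 0.44 ± 0.11 (adjusted p = 0.00636), less than 2-fold. At P21 against P14, Bbc3 (-1.17 ± 0.33, adjusted p = 0.0131) and Pmaip1 (-1.76 ± 0.54, adjusted p = 0.0207) fell, where 5.07% of all genes fell. Single libraries decide some of these. Bcl2 at P4 against P2 was -0.99 without P2 replicate 2. Bbc3 at P21 against P14 missed the adjusted p without P14 replicate 1 (0.105), P21 replicate 1 (0.0535) or P21 replicate 2 (0.0954). Pmaip1 missed it without P14 replicate 2 (0.152) or P21 replicate 2 (0.187).

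The transcript estimates show what the gene totals were made of. Bak1-002, with the microexon shown above, held 74.8% of Bak1 transcript counts on average and Bak1-001 held 20.8%. The share of Bak1-002 was 71.0 and 69.5% at E11, 74.2 and 54.4% at E14, 87.2 and 86.3% at P10 and 69.1 and 65.6% at P21. Both P10 libraries were above all libraries of E11, E12, E16, P0, P2, P14, P21 and P28, but P6 replicate 2 was higher, at 90.6%. The pairs of E12, E14, P4 and P6 were each far apart. No test was made of shares. The 2 transcripts share most of their bases, so reads were split between them by estimation, with the microexon and the first exon as the differences.

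Bcl2l11-001, with a coding length of 588 bases, held 87.6% of Bcl2l11 counts on average. Bcl2l11-003, with a shorter coding length of 273 bases and another last exon, held 4.77 and 4.77% at E16, 15.3 and 15.7% at P0, 6.4 and 9.42% at P2, 15.34 ± 1.55% (mean ± SD) at P4, 3.1 and 4.37% at P10 and 2.08 and 2.04% at P28. The P0 and P4 libraries were above those of every other stage, and P2 lay lower than both its neighbours. Bcl2l1-001, from the distal start, held 34.1 and 38.1% of Bcl2l1 counts at P4, 72.9 and 63.5% at P14 and 57.0 and 60.4% at P28. Bcl2l1-201, from the middle start, held 26.0 and 28.4% at P4, 10.72 ± 0.95% at P14 and 22.4 and 15.2% at P28. It held 29.9 and 22.8% at P0 and 28.3 and 25.8% at P6, and a low share at E12 (2.13 and 4.46%). Bcl2-001 held 98.1% of Bcl2 counts, Casp9-001 92.6%, Bbc3-001 86.2% and Apaf1-002 80.5%, and Bax and Pmaip1 had 1 transcript each in the table.

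**Figure D4:**
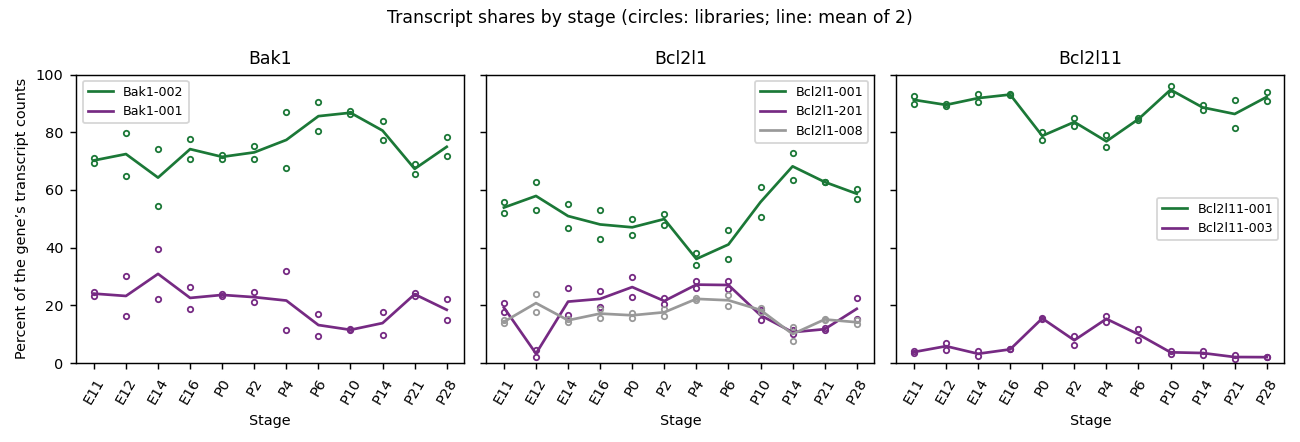
Percent of each gene's transcript counts held by named transcripts (vertical axis) at the 12 stages (horizontal axis); circles are libraries and lines join means of 2. Bak1-002 reaches 86.8% at P10, Bcl2l1-001 runs from 36.1% at P4 to 68.2% at P14, and Bcl2l11-003 is at 15.5% at P0 and 15.3% at P4.

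Promoter windows of 300 bases were matched for 8 members, with 13 RefSeq starts (GRCm38.p6), and searched on both strands for 6 short motifs. The forkhead letters GTAAACA, a core bound by FOXO factors, which are known regulators of Bcl2l11, occurred in 1 Bcl2l11 window and 1 Bbc3 window, and in 3.65% of 32851 promoters. The Bcl2l11 stretch at chr2:128125795-128125834 (plus strand) is shown because BIM is a textbook FOXO target, with the letters in capitals.
Bcl2l11 forkhead letters: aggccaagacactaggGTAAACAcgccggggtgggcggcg
GC boxes (GGGCGG) occurred 7 times in the Bcl2 window, 5, 4 and 7 times in the windows of Bbc3 and 4 times in that of Casp9. They occurred 3 times in each window of Bax, Apaf1 and Bcl2l11, and 0 times in those of Bak1 and Bcl2l1. Of all promoters, 35.7% held at least 1. The E-box letters CACGTG (7.15% of promoters) occurred 2 times in the Bax window and 1 time in a Bbc3 window. The E2F letters TTTCCCGC (1.07% of promoters), the TATA letters TATAAA (13.6%) and the cAMP element TGACGTCA (1.79%) were in none of the 13 windows. A match is a description of letters only.

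Beyond the members, 1 list held apoptosome and executioner caspases with their substrates. Of its 13 genes tested, 0 were called higher and 1 lower at E16 against E11 (22.7% of all genes called). At P6 against E16, 1 was called higher and 1 lower (24.9%). At P28, 2 were higher and 4 lower against P6 (24.7%), and 2 higher and 4 lower against P0 (37.0%). Casp2, an initiator caspase activated outside the apoptosome, fell to 65.3 ± 1.13 CPM at P6 against 145 ± 13.9 CPM at E16 (log2 change -1.15 ± 0.13, adjusted p = 1.4e-06, edgeR quasi-likelihood test). Endog, a mitochondrial nuclease, rose to 1.11 ± 0.0672 CPM at P6 against 0.367 ± 0.122 CPM at E16 (log2 change 1.57 ± 0.44, adjusted p = 0.0065).

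Inhibitors of apoptosis proteins bind caspases downstream of the mitochondria. Xiap, which inhibits caspase-9 and the executioners, rose to 795 ± 98.8 CPM at P28 against 264 ± 2.91 CPM at P6 (log2 change 1.59 ± 0.1, adjusted p = 1.53e-09, edgeR quasi-likelihood test). Birc5, a family member that also serves in mitosis, fell to 1.04 ± 0.0786 CPM at P28 against 130 ± 3.52 CPM at P0 (log2 change -6.96 ± 0.32, adjusted p = 5.76e-12). Sept4, whose ARTS isoform antagonises XIAP in human cells, rose to 114 ± 0.14 CPM at P6 against 21 ± 2.02 CPM at E16 (log2 change 2.44 ± 0.11, adjusted p = 1.09e-11). Of 11 genes tested in this list, 1 was called higher and 2 lower at E16 against E11 (22.7% of all genes called), and 4 higher and 1 lower at P6 against E16 (24.9%). At P28, 2 were higher and 1 lower against P6 (24.7%), and 3 higher and 1 lower against P0 (37.0%).

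**Figure D5:**
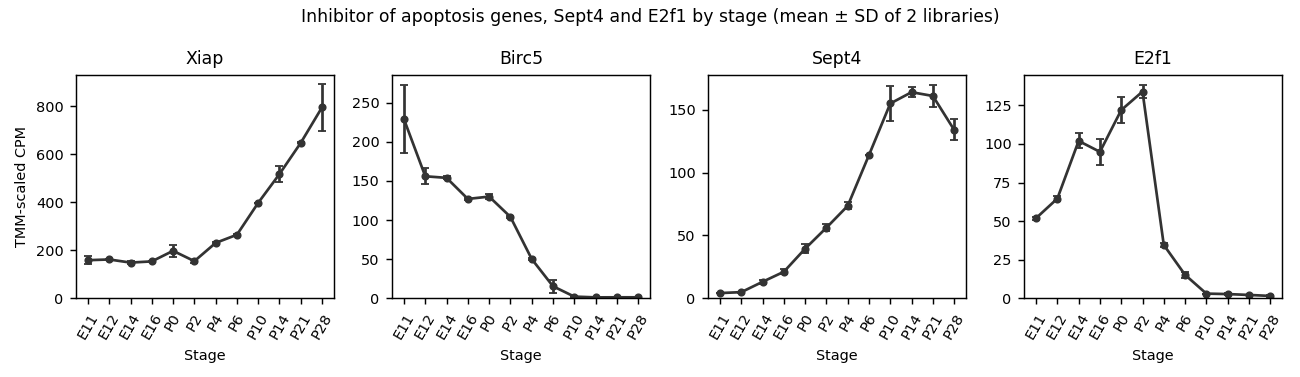
TMM-scaled CPM of Xiap, Birc5, Sept4 and E2f1 (vertical axes, each from 0) at the 12 stages (horizontal axis), as mean with SD of 2 libraries. Xiap is at 795 CPM at P28 and 264 CPM at P6, while Birc5 is at 1.04 CPM at P28 and 130 CPM at P0.

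Counts of the remaining lists are read against the shares of all genes called, which were 22.7% at E16 against E11, 24.9% at P6 against E16, 24.7% at P28 against P6 and 37.0% at P28 against P0. Of 16 other BCL2 family genes tested, 2 were called higher and 2 lower at E16 against E11, 2 higher and 2 lower at P6 against E16, 1 higher and 3 lower at P28 against P6, and 5 higher and 4 lower at P28 against P0. Hrk, a neuronal BH3-only gene, rose to 8.67 ± 0.647 CPM at E16 against 0.631 ± 0.358 CPM at E11 (log2 change 3.76 ± 0.33, adjusted p = 5.74e-08, edgeR quasi-likelihood test). Bmf, another BH3-only gene, fell to 13.8 ± 0.771 CPM at E16 against 37.6 ± 13.4 CPM at E11 (log2 change -1.45 ± 0.34, adjusted p = 0.0022), in a window where the tissue markers above also moved. Bcl2l12 fell at P6 against E16 (-2.55 ± 0.3, adjusted p = 2.42e-06).

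Upstream of the BH3-only genes, of 19 transcription factors and kinases, read against the same shares of all genes, 5 were called higher and 1 lower at E16 against E11, 1 higher and 3 lower at P6 against E16, 3 higher and 3 lower at P28 against P6, and 6 higher and 4 lower at P28 against P0. E2f1, a cell cycle factor that can induce BH3-only genes and Apaf1, fell to 15.1 ± 2.09 CPM at P6 against 94.9 ± 8.41 CPM at E16 (log2 change -2.65 ± 0.15, adjusted p = 1.63e-10, edgeR quasi-likelihood test). It fell again at P28 against P6, to 1.42 ± 0.463 CPM (log2 change -3.41 ± 0.18, adjusted p = 1.19e-10). Mapk10, the neuronal JNK3 kinase, rose to 40.6 ± 2.23 CPM at E16 against 5.04 ± 1.95 CPM at E11 (log2 change 3.01 ± 0.27, adjusted p = 6.94e-08).

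In the p53 list, again beside those shares, 3 of 20 genes were called higher and 3 lower at E16 against E11, 2 higher and 4 lower at P6 against E16, 2 higher and 6 lower at P28 against P6, and 5 higher and 6 lower at P28 against P0. Pidd1, a p53 target that activates caspase-2, fell to 1.69 ± 0.119 CPM at P28 against 34.8 ± 11.9 CPM at P0 (log2 change -4.36 ± 0.27, adjusted p = 3.14e-10, edgeR quasi-likelihood test). Trp63 and Perp, an epithelial p53 relative and its target, fell at E16 against E11 (-7.45 ± 1.2 with adjusted p = 6.77e-05, and -4.37 ± 0.54 with adjusted p = 4e-06). Their E11 levels were 11.3 ± 13.8 CPM for Trp63 and 7.36 ± 6.43 CPM for Perp, so the 2 E11 libraries differed widely.

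Among the genes of the extrinsic route, which starts at death receptors, 6 of 13 were called lower and 2 higher at P6 against E16, against 24.9% of all genes called. In that list 1 was called higher at E16 against E11, 1 higher and 1 lower at P28 against P6, and 2 higher and 2 lower at P28 against P0. Fadd, the adaptor of the death receptors, fell to 2.73 ± 0.309 CPM at P6 against 11.3 ± 0.352 CPM at E16 (log2 change -2.05 ± 0.21, adjusted p = 3.46e-07, edgeR quasi-likelihood test). Casp8, the initiator caspase of that route, fell to 0.765 ± 0.0744 CPM at P28 against 5.2 ± 0.272 CPM at P0 (log2 change -2.76 ± 0.22, adjusted p = 8.41e-09). Ngfr, the p75 neurotrophin receptor, rose to 48.9 ± 5.42 CPM at E16 against 4.57 ± 3.11 CPM at E11 (log2 change 3.43 ± 0.3, adjusted p = 6.57e-08). In the list of other regulated cell death, 2 of 10 tested genes were called higher and 1 lower at P28 against P0; Gpx4, which guards against ferroptosis, rose to 306 ± 17.1 CPM at P28 against 121 ± 8.87 CPM at P0 (log2 change 1.34 ± 0.16, adjusted p = 1.66e-06).

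The genes whose stage pattern was most like each member were taken among 11678 genes that reached 10 CPM in some stage mean, by Pearson correlation of log2 CPM stage means over the 12 stages, as a description with no test. For Bax it was Psmb3, a proteasome subunit (r = 0.984), for Bak1 Pkdcc (0.974), and for Bcl2 Mdc1, a DNA damage mediator (0.987). Bcl2l11 was closest to Odc1, the first enzyme of polyamine synthesis (r = 0.992), and Apaf1 to Cdk6, a cell cycle kinase (0.994). Bcl2l1 was closest to Ralgds (0.933), Casp9 to Yrdc (0.934), Bbc3 to Zfp282 (0.926) and Pmaip1 to Exoc6 (0.834). All points of a pair come from the same libraries.

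The authors' deposited table of changes against E11 lists 7 of the 9 members among 12718 genes, without Pmaip1 and Casp9. In the authors' deposited table Bcl2 and Bak1 share cluster 1, with log2 values at P6 of -2.7 for Bcl2 and -2.34 for Bak1. The other 5 members lie in clusters that differ from one another: Bbc3 in cluster 6, Apaf1 in 9, Bax in 12, Bcl2l11 in 13 and Bcl2l1 in 34.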

How the data were processed

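The authors deposited estimated counts per Ensembl gene and per transcript, normalized CPM and a table of log2 changes against E11 with p-values; kallisto 0.42.4, edgeR 3.13.9 and GRCm38.p5 are named, with no role, per the submitters' processing notes. The summing of transcript estimates to genes is a step not given in the sources used here. Each gene of the authors' deposited table also has an F score, which was not used. Gene counts were rounded and tested with edgeR 4.0.16 (R 4.3.3, TMM, filterByExpr minimum count 10, 1 coefficient per stage, 24 libraries, 12 residual degrees of freedom). Calls needed a Benjamini-Hochberg adjusted p under 0.05 and 2-fold change. SE is the size of the log2 change over the root of F. TPM used transcript counts over transcript length.

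The members and lists were chosen with earlier results of these data known. Members were named whatever their tests, with the 3 most correlated genes of each and the 2 largest called changes per pathway list and window; of these, the ones described are a selection, and some genes that the lists take in are not reported here. Exons were read from GENCODE vM21 coordinates, promoters from RefSeq. Alternatives were DESeq2 1.42.0, RLE factors, library size alone, other filters, no fold threshold, summed transcript counts, a replicate block, the compared stages alone and each library left out. For the counts of calls over any stage, the fit of stages E14 to P28 alone was added after seeing the data.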

Additional observations from a re-analysis of the deposited data

How the results depend on the processing

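With no fold threshold, the members called were 5 for E16 against E11, 6 for P6 against E16, 7 for P28 against P0 and 30 over the 11 steps, and the counts over all genes were 10014, 10294, 10656 (P28 against P6), 12877 and 48311, against 4958, 5451, 5403, 8079 and 16243 with it. Pathway list calls then came to 56, 59 and 57 in the first 3 windows. Leaving out each library in turn gave 1 to 2 members called for E16 against E11, 1 for P6 against E16, 3 to 5 for P28 against P6, 3 to 4 for P28 against P0, 4 to 8 over the steps and 8 to 9 for any stage; the lone library left is assumed to vary like the other stages. DESeq2, RLE factors and library size alone kept the counts of members called within 1.5 times of those reported. Library size alone moved the median of all genes by 0.14 at E16 against E11. Some uncalled values changed sign. Bbc3 at E16 against E11 ran from -0.17 to 0.65 with 1 library left out, the lowest without E11 replicate 1. Pmaip1 at P28 against P0 ran from -0.33 to 0.79 with 1 library left out, the lowest without P28 replicate 1. At P6 against E16, Pmaip1 was 0.0 as reported and ran from -0.25 to 0.63 with 1 library left out. Casp9 at P6 against E16 was -0.03 with summed transcript counts. The cause was not tested. Of the 3 genes most like each member, 0 to 1 were again among the highest by Spearman correlation for Bax, Bak1, Bcl2l1, Bcl2l11, Bbc3, Pmaip1, Apaf1 and Casp9. Over E14 to P28 only, 0 were again among the highest for Bak1 and Pmaip1 and 1 for Bax, Bcl2l1, Bcl2l11, Apaf1 and Casp9. Replicate numbers showed no pairing across the stages as a whole. Over 66 pairs of stages, same-numbered libraries deviated together with a median r of 0.022 (-0.43 to 0.5, with 16 over 0.1). Pairing within some of the stages was not tested. With the replicate block, the members called were 9 for any stage, 1 for E16 against E11 and 1 for P6 against E16. They were 4 for P28 against P6, 4 for P28 against P0 and 6 over the steps. In the same order, the counts over all genes were 16813, 4928, 5432, 5364, 8049 and 16112. Depth limits Bbc3 and Pmaip1 most, at 19.3 and 8.73 counts in their lowest libraries.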
